A study of Homo sapiens with 9 samples.

Results

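Ribosome biogenesis factors, the proteins that transcribe ribosomal RNA (rRNA) genes and cut, modify, fold and export the pre-ribosomal particles, were followed by RNA sequencing in NB4 cells. Members were the rows that carry 1 of 42 listed gene symbols at a single locus in both deposited expression tables, which 39 symbols met, among 36119 loci of the knockout table and 35856 of the treatment table. PES1 shares its row with another gene, PPAN has no row under its symbol, and RRP1B is listed under its older symbol KIAA0179, so these 3 were not counted as members. All 39 members passed the filter on low values of 1 FPKM (fragments per kilobase of transcript, scaled to the mapped fragments of the library) in every comparison.

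NB4, an established line from acute promyelocytic leukaemia, expresses the fusion protein PML-RARA and differentiates toward granulocytes when given retinoic acid (RA). For the treatments, NB4 cells gave 1 library per condition after 24 h with MC_2580, an inhibitor of the histone demethylase LSD1 whose dose the labels do not give, with MC_2580 plus 0.01 uM RA (the combination), or with the vehicle DMSO, RA at 0.01 uM and RA at 1 uM. In the knockout set, 2 libraries came from untreated LSD1 KO cells and 2 from untreated WT cells. The file headers give both KO libraries the same KO name, so they may stand for 1 clone, and since no source says that replicates were grown apart, a p-value here reflects the spread of these libraries, which may be technical.

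In every growing cell RNA polymerase I transcribes the rRNA precursor in the nucleolus, where box C/D and H/ACA small nucleolar RNPs modify it while the small subunit processome and the 60S assembly factors fold and trim it. The transcription factor MYC is a known activator of many of these genes through the E-box CACGTG, and the output of the pathway is known to drop when myeloid cells leave the cell cycle and mature. LSD1 removes methyl groups from histone H3, and its inhibitors are known to ease RA-driven maturation of leukaemic cells.

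The E-box was looked up because MYC is the best-known shared regulator of the pathway. In RefSeq promoter windows of build GRCh38.p14, 32 of 39 members were found, and 6 of these 32 (18.8%) held CACGTG, which reads the same on both strands, within 250 bases before a start site, against 7.73% of all 27305 genes in that table and 9.73% of its 15843 protein-coding genes. The stretch around the motif is shown 5′ to 3′ on the strand of the gene for those 6, with the E-box in capitals.
LYAR, chr4:4290068-4290097, minus strand: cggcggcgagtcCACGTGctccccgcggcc
EBNA1BP2, chr1:43172790-43172819, minus strand: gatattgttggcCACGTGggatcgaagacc
NAT10, chr11:34105599-34105628, plus strand: tttaatgcgcttgcgCACGTGctgtctacc
IMP4, chr2:130342682-130342711, plus strand: gcggtcctaagtCACGTGtgacattctgta
UTP20, chr12:101280055-101280104, plus strand: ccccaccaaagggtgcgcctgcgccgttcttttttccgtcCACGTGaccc
DDX21, chr10:68956604-68956633, plus strand: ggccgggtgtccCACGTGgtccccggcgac
A match of letters does not show that a factor binds there. POLR1E, TCOF1, NOLC1, RRP12, BOP1, RRS1 and URB2 were not in the promoter table.

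The targeted gene was checked first. KDM1A, which encodes LSD1 and is listed as AOF2, had 14.0 and 16.8 FPKM in KO libraries, against 49.8 and 66.6 in WT libraries (log2 difference -1.84, limma adjusted p = 0.158). It was thus lower in both KO libraries but did not pass the adjusted p threshold of 0.05. Of 6 promyelocyte markers, 5 reached 1 FPKM in every library, and markers of red cells summed to at most 0.0677 FPKM. Each library had 11974 to 13365 loci of at least 1 FPKM, and the number of reads behind them is not given in the sources used here, so counting error is unknown. The tables were scaled separately, and levels are compared only within one.

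With MC_2580 plus RA, transcripts of nearly the whole pathway stood lower than in DMSO. On the log2(FPKM + 1) scale 38 of 39 members were below DMSO, where 52% of all loci were, and the member median difference was -0.62, against -0.02 over all 13841 loci compared. RRP12 was the exception. The summed level of all members was 2990 FPKM in the combination, against 4600 FPKM in DMSO. Each treatment has a single library, so this difference has neither a replicate check nor a p-value, and in bulk RNA fewer cells of a type cannot be told apart from less RNA per cell. Between libraries of the same group in the knockout table, the member medians also differed, by -0.61 (KO 1 minus KO 2) and -0.57 (WT 1 minus WT 2), so the combination median is about as large as those between libraries of 1 group there. For 22 of 39 members the combination lay below DMSO by more than either of the member's own within-group differences, as it did for 22.7% of protein-coding genes.

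**Figure D1:**
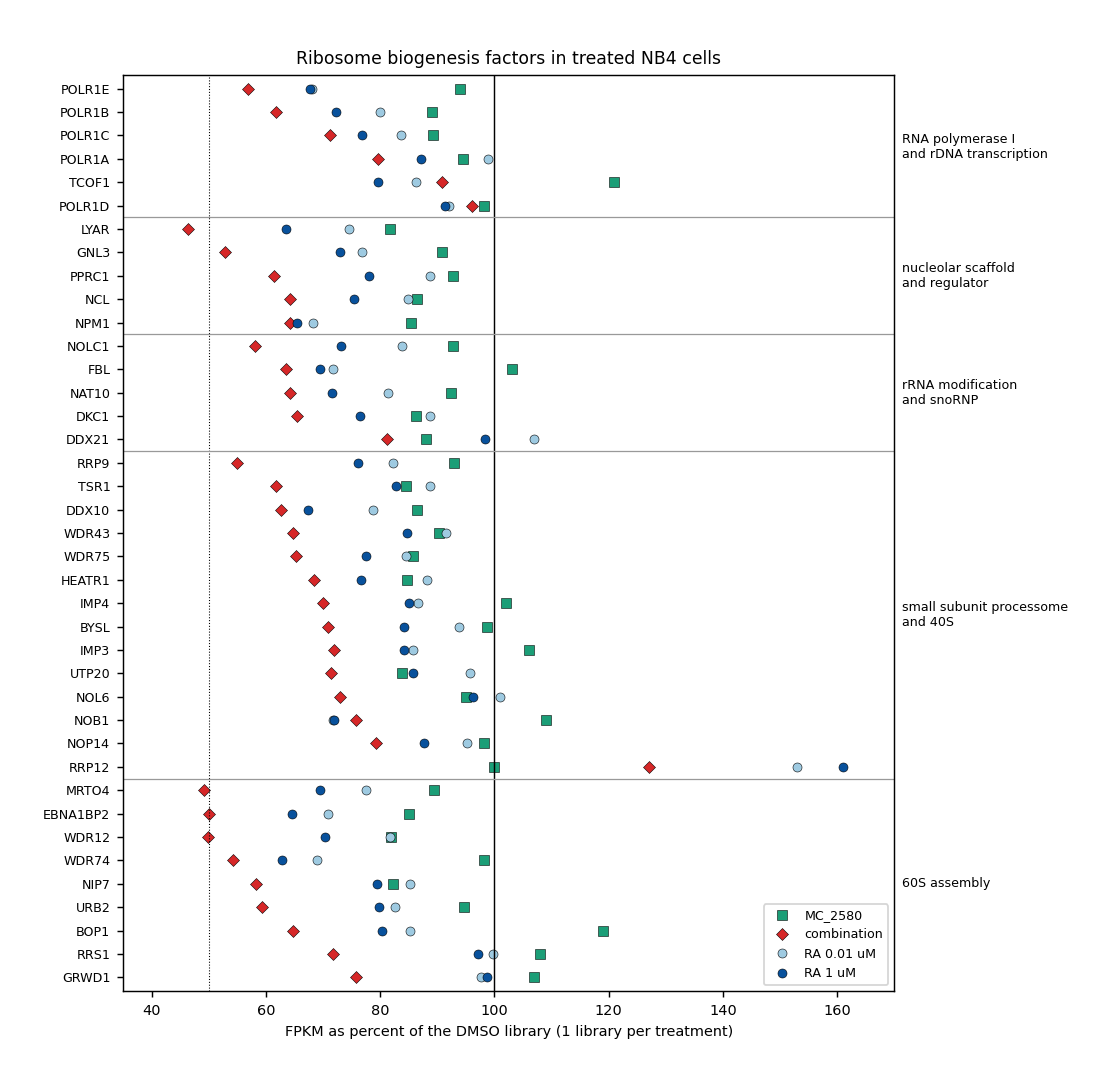
FPKM of each of 39 members as percent of the DMSO library (horizontal axis; the solid line is DMSO, the dotted line 50%), with members grouped by role and 1 point per treated library. Combination points lie left of DMSO for all members but RRP12, and LYAR at 46.4% is the lowest.

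Among RNA polymerase I genes, POLR1E, a subunit of polymerase I alone, was the lowest relative to DMSO. POLR1E had 22.1 FPKM with MC_2580 and 13.4 in the combination, and 23.5, 16 and 16 FPKM in DMSO and with RA at 0.01 and 1 uM. POLR1D, a small subunit shared with polymerase III, had 78.1 and 76.5 FPKM with MC_2580 and in the combination, and 79.6, 73.3 and 72.7 along the RA doses from DMSO. TCOF1, the nucleolar protein treacle that assists rDNA transcription, had 41.2 and 31 FPKM with MC_2580 and in the combination, and 34.1, 29.4 and 27.2 from DMSO to 1 uM RA. POLR1D thus stayed within 10% of DMSO in every treated library, and TCOF1 was the member with the highest MC_2580 value relative to DMSO. The catalytic subunits POLR1A and POLR1B stood at 79.7% and 61.7% of DMSO in the combination, and the shared subunit POLR1C at 71.3%. POLR1C and POLR1E, and in other groups NCL, GNL3, DKC1, RRP12, WDR43, TSR1 and BOP1, lie in spans that other loci share, so their levels may hold reads of neighbours.

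The scaffold and regulator genes held both the most abundant members and the one with the greatest difference. LYAR, a nucleolar zinc finger protein (hg18 chr4:4320340-4342774), had 109 FPKM with MC_2580 and 61.6 in the combination, and 133, 98.9 and 84.2 FPKM in DMSO and with RA at 0.01 and 1 uM. On the log2(FPKM + 1) scale it was the only member past 2-fold in any treatment comparison (log2 difference -1.09), where 4.64% of all loci were 2-fold lower in the combination. Members past 2-fold in the combination against DMSO numbered 3 with a pseudocount of 0.1 FPKM and 4 after scaling to equal medians. The shares of all loci under these settings were not counted. With MC_2580, RA 0.01 uM and RA 1 uM, 0 members passed 2-fold against DMSO, where 1.73%, 3.99% and 4.09% of all loci were lower. NCL, nucleolin, had 975 and 724 FPKM with MC_2580 and in the combination, and 1130, 958 and 851 from DMSO to 1 uM RA. NPM1, the nucleolar chaperone nucleophosmin, had 874 and 657 FPKM with MC_2580 and in the combination, and 1020, 700 and 671 from DMSO to 1 uM RA. Both thus stood at 64.2% of DMSO in the combination, but NPM1 was already near that level with RA alone while NCL was not. GNL3, the nucleolar GTPase nucleostemin, stood at 52.8% and PPRC1, a coactivator better known for mitochondrial genes, at 61.4%. In the authors' deposited table NCL was the only member called significant. That table called it against DMSO with MC_2580 (0.614% of all loci called), RA 0.01 uM (2.64%), RA 1 uM (2.96%) and the combination (3.78%). The authors' deposited table also called NCL in the combination against RA 0.01 uM (1.63%) and against MC_2580 (3.25%). Each of these calls compares 1 library with 1 other. The NCL log2 differences from DMSO were -0.21 with MC_2580, -0.24 and -0.41 with RA at 0.01 and 1 uM, and -0.64 in the combination. All were smaller in size than its differences within groups, -0.67 (KO 1 minus KO 2) and -0.75 (WT 1 minus WT 2). The NCL and GNL3 spans hold snoRNA loci and NPM1 has processed pseudogenes, so these levels are uncertain.

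Genes of rRNA modification were lower in the combination in all 5 cases. NOLC1, a chaperone of small nucleolar RNPs, had 140 FPKM with MC_2580 and 87.5 in the combination, and 150, 126 and 110 FPKM in DMSO and with RA at 0.01 and 1 uM. FBL, the methyltransferase fibrillarin, had 248 and 154 FPKM with MC_2580 and in the combination, and 242, 173 and 168 from DMSO to 1 uM RA. DDX21, an RNA helicase, had 104 and 95.6 FPKM with MC_2580 and in the combination, and 118, 126 and 116 from DMSO to 1 uM RA. FBL was therefore low in every library with RA, lowest in the combination, and not low with MC_2580 alone. DDX21 was lowest in the combination and near DMSO with RA alone. The acetyltransferase gene NAT10 stood at 64.2% of DMSO in the combination and DKC1, the pseudouridine synthase dyskerin, at 65.4%.

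In the small subunit processome and 40S group, 13 of 14 members were lower in the combination and RRP12 was higher. RRP9, a protein of the U3 snoRNP, had 41.1 FPKM with MC_2580 and 24.3 in the combination, and 44.3, 36.4 and 33.7 FPKM in DMSO and with RA at 0.01 and 1 uM. NOP14 had 75.2 and 60.8 FPKM with MC_2580 and in the combination, and 76.6, 72.9 and 67.1 from DMSO to 1 uM RA. RRP12, a HEAT-repeat protein known from yeast for subunit export (hg18 chr10:99106449-99151087), had 28.3 and 35.7 FPKM with MC_2580 and in the combination, and 28.2, 43.1 and 45.4 from DMSO to 1 uM RA. RRP12 was the highest with RA alone, at 1.5-fold or more above DMSO at both doses, and lay between DMSO and RA in the combination. The others stood between 61.7% (TSR1, a GTPase-like factor of late 40S assembly) and 75.7% of DMSO (NOB1, the endonuclease of the last 40S cut), with the helicase DDX10 at 62.7%. WDR43, WDR75 and HEATR1, of the subcomplex that joins the nascent transcript first, stood at 64.8%, 65.2% and 68.5%. IMP4 and IMP3, partners in the processome, stood at 70.0% and 71.9%, BYSL at 70.8%, UTP20 at 71.4% and NOL6 at 72.9%. NOB1 had 66.2 and 45.8 FPKM with MC_2580 and in the combination, and 60.6, 43.5 and 43.6 from DMSO to 1 uM RA, so adding MC_2580 did not take it below RA alone.

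The 60S assembly group had the lowest median of the role groups in the combination, at -0.76. MRTO4, known from yeast to hold the place of the ribosomal stalk, had 47.3 FPKM with MC_2580 and 26.0 in the combination, and 52.9, 41.0 and 36.7 FPKM in DMSO and with RA at 0.01 and 1 uM. EBNA1BP2 had 81.2 and 47.8 FPKM with MC_2580 and in the combination, and 95.4, 67.7 and 61.7 from DMSO to 1 uM RA. GRWD1, whose yeast relative is a chaperone of a 60S ribosomal protein, had 136 and 96.6 FPKM with MC_2580 and in the combination, and 127, 124 and 126 from DMSO to 1 uM RA. MRTO4 and EBNA1BP2 stood near 50% of DMSO in the combination, with intermediate levels at both RA doses, while GRWD1 was low in the combination alone. URB2, the member with the lowest mean level in the treatment table, had 8.91 and 5.58 FPKM with MC_2580 and in the combination, and 9.40, 7.77 and 7.51 from DMSO to 1 uM RA. WDR12 and BOP1, which form a complex with PES1, stood at 49.8% and 64.8%, WDR74 at 54.2%, NIP7 at 58.2% and RRS1 at 71.7% of DMSO. The skipped RRP1B, as KIAA0179, had 39.9 and 27.8 FPKM with MC_2580 and in the combination, and 36.5, 28.2 and 26.3 from DMSO to 1 uM RA.

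Across the single agents the differences from DMSO were smaller. With MC_2580 the member median was -0.11, with 30 of 39 members below DMSO, against 53.3% of all loci. With RA it was -0.23 at 0.01 uM, with 36 of 39 below (58.1% of all loci), and -0.36 at 1 uM, with 38 of 39 below (54.2% of all loci). The within-group medians of -0.61 and -0.57 exceed all 3 of these. From DMSO over 0.01 uM to 1 uM RA, 34 members were ordered downward, against 25% of all loci, and RRP12 was ordered upward. The step between the doses was small, with a median of -0.12 for RA 1 uM minus RA 0.01 uM and 36 of 39 members below, against 42.2% of all loci. Members below DMSO by more than either within-group difference numbered 1 with MC_2580 (7.59% of protein-coding genes), 8 at 0.01 uM RA (20%) and 11 at 1 uM RA (19.1%), and the share at 0.01 uM RA is close to that of genes in general.

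The combination was the lowest of the 5 libraries for 35 members, against 27.8% of all loci, and the exceptions were NOB1, POLR1D, RRP12 and TCOF1. Against RA at the same 0.01 uM dose the member median was -0.38, with 36 members lower (46.8% of all loci). At 1.5-fold, 3 members were lower than with RA 0.01 uM (4.16% of all loci), and 12 were lower than with MC_2580 (11.7%). Against the higher RA dose of 1 uM the median was -0.24, with 36 members lower (51.9%), and against MC_2580 it was -0.49, with 38 lower (51.3%). The median difference of the combination minus the sum of both single treatments was -0.26 on the log2 scale. It rests on single libraries, has no value over all loci beside it, and is smaller in size than the within-group medians of -0.61 and -0.57. A departure from the sum was not tested. At 1.5-fold, 23 members were lower in the combination than in DMSO, against 12.6% of all loci, and 4 were lower with RA 1 uM (9.49%). RRP12 was 1.5-fold higher with RA 0.01 uM (9.57% of all loci) and with RA 1 uM (12%).

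All 3 libraries with RA lay below both without it for 29 members, against 29.2% of all loci, and above both for RRP12 (24%). Where the nearest libraries had to differ by at least 25%, FBL, NOB1, POLR1E and WDR74 remained on the lower side, against 7.59% of all loci, and RRP12 on the higher, against 8.76%. WDR74, a 60S assembly factor, had 67.2 and 37.1 FPKM with MC_2580 and in the combination, and 68.5, 47.2 and 43.0 from DMSO to 1 uM RA. WDR74 was thus near DMSO with MC_2580 alone and low in each library with RA.

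Maturation markers differed between the same libraries. The mature granulocyte and monocyte markers summed to 59.1 FPKM with MC_2580 and 1520 in the combination, and to 29.5, 539 and 643 FPKM in DMSO and with RA at 0.01 and 1 uM. CSF3R has no value in the libraries with RA, nor CD14 at 1 uM, so those sums cover 5, 5 and 4 of 6 genes. The promyelocyte markers summed to 6930 FPKM with MC_2580 and 3460 in the combination, and to 5660, 3610 and 3570 FPKM from DMSO to 1 uM RA. B cell markers summed to 12.6 FPKM with MC_2580 and 78.8 in the combination, and to 10.4, 54.7 and 58.2 FPKM from DMSO to 1 uM RA, with the B cell marker MS4A1 listed at 0 in every library. The part of maturation in the members' levels was not tested. MYC had 309 FPKM with MC_2580 and 81.3 in the combination, and 319, 135 and 157 FPKM from DMSO to 1 uM RA. MYC was thus low in the same 3 libraries, and lowest in the combination. It was higher at 1 uM RA than at 0.01 uM, whereas 34 members were ordered downward from DMSO over both doses. The part of MYC in the members' levels was not tested. The median combination difference was -0.56 for the 6 members with the E-box and -0.63 for the other 26 with a promoter window, as a description with no test.

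**Figure D2:**
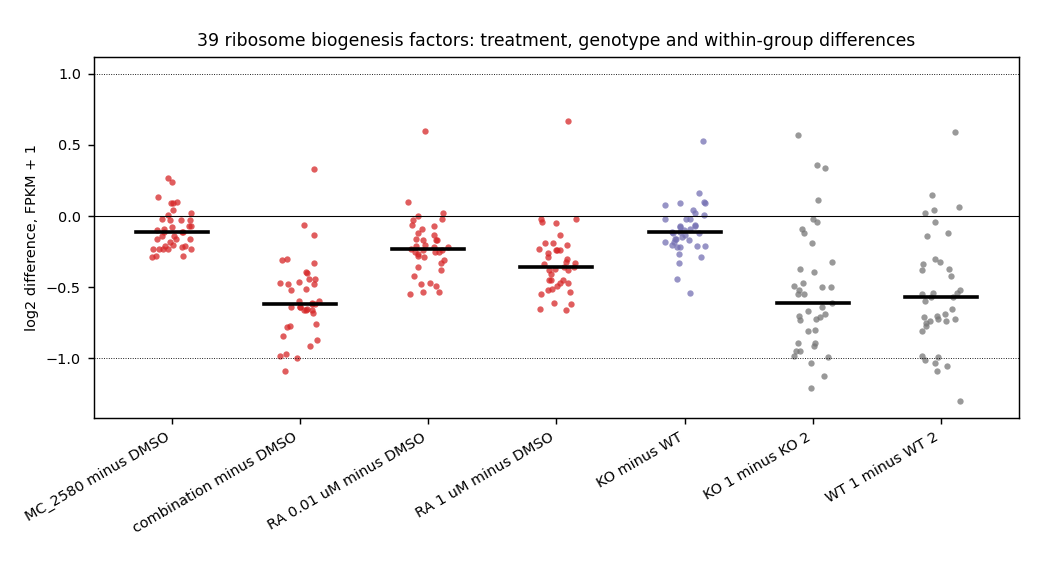
Log2 differences of FPKM + 1 for 39 members in 7 comparisons (vertical axis); each point is a member, the thick line its median and the dotted lines 2-fold. Medians are -0.62 for combination minus DMSO, -0.11 for KO minus WT, and -0.61 and -0.57 between the libraries of 1 group.

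The test of KO against WT gave no call among the members, but it did not call the targeted gene KDM1A either (limma adjusted p = 0.158). With 2 libraries per group it can miss a difference of that size. The lack of calls therefore does not show that the members were unchanged. By limma on log2(FPKM + 1) over 13157 loci, 0 of 39 members passed an adjusted p of 0.05, against 0.114% of all loci, and 1 member had an unadjusted p under 0.05, against 7.16% of all loci. That member was FBL, with 269 and 276 FPKM in KO libraries, against 199 and 178 in WT libraries (log2 difference 0.53, SE 0.19, limma unadjusted p = 0.0486, adjusted p = 0.691). Member differences ranged from -0.54 to 0.53 with a median of -0.11, against -0.02 over all loci, and 30 of 39 lay below 0. The share of all loci below 0 was not counted here, so that number cannot be set beside genes in general. The authors' deposited table called no member in KO 1 against WT 1 (0.324% of all loci called) or KO 2 against WT 2 (0.266%).

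The lowest differences were those of RRP9, LYAR and EBNA1BP2. RRP9 had 28.2 and 43.5 FPKM in KO libraries, against 39.5 and 66.6 in WT libraries (log2 difference -0.54, limma adjusted p = 0.83). LYAR had 55.9 and 112 FPKM in KO libraries, against 84.7 and 138 in WT libraries (-0.44, limma adjusted p = 0.901). EBNA1BP2 had 49.5 and 93.7 FPKM in KO libraries, against 65.4 and 112 in WT libraries (-0.33, limma adjusted p = 0.936). In all 3 the groups overlap, with the second KO library above the first WT library. Libraries of the same number differed by -0.47 (KO 1 minus WT 1) and -0.6 (KO 2 minus WT 2) for RRP9. In that order they differed by -0.59 and -0.29 for LYAR and by -0.4 and -0.26 for EBNA1BP2. KO was thus the lower at both replicate numbers, though what the number marks is not stated. After FBL, the highest were POLR1D, with 95.5 and 64.1 FPKM in KO libraries, against 85.7 and 56.7 in WT libraries, and TCOF1, with 19.6 and 37.2 FPKM in KO libraries, against 18.8 and 33.6 in WT libraries. Both differences (0.16 and 0.10) were smaller than the gap between replicates. Between libraries of the same number they were 0.15 and 0.18 for POLR1D, and 0.06 and 0.14 for TCOF1.

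Groups did not overlap for 4 members. POLR1C and POLR1E were lower in both KO libraries (15.9% of all loci), and FBL and NOB1 were higher in both (17.8% of all loci). POLR1C had 59.6 and 68.2 FPKM in KO libraries, against 69.4 and 75.8 in WT libraries. POLR1E had 15.8 and 16.9 FPKM in KO libraries, against 18.1 and 17.3 in WT libraries. NOB1 had 86.5 and 87.7 FPKM in KO libraries, against 83.5 and 81.2 in WT libraries. In POLR1C, POLR1E and NOB1 the gap between the nearest libraries was small beside that of FBL. NCL had 623 and 994 FPKM in KO libraries, against 645 and 1080 in WT libraries, and NPM1 had 2250 and 1780 in KO libraries, against 1930 and 1980 in WT libraries. Neither of these abundant members separated the groups. BOP1, the member with the lowest mean level in the knockout table, had 4.31 and 7.28 FPKM in KO libraries, against 4.96 and 8.82 in WT libraries, which overlap too. MYC did not pass the test, with 248 and 262 FPKM in KO libraries, against 260 and 224 in WT libraries (log2 difference 0.08, limma adjusted p = 0.97). The median moved when 1 library was left out. It was 0.16 without KO 1, -0.42 without KO 2, -0.43 without WT 1 and 0.15 without WT 2. Each of these fits leaves replicate numbers unequal between the genotypes, so it also holds the difference between replicates. Libraries of the same number gave closer medians. In KO 1 minus WT 1 they were -0.05 for the 19 members with transcripts over 3533 bases and -0.16 for the others. In KO 2 minus WT 2 they were -0.06 and -0.16. With 1 library left out, the members with no overlap numbered 13, 31, 31 and 11 in the same order, against 61.5%, 70%, 70.9% and 62.8% of all loci. A group of 1 library overlaps less often by construction. Mature granulocyte and monocyte markers summed to 119 and 99.8 FPKM in KO libraries, against 42.5 and 20.2 in WT libraries, and T cell markers to 230 and 189 FPKM in KO libraries, against 117 and 71.3 in WT libraries. Their part in the members' values was not tested.

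**Figure D3:**
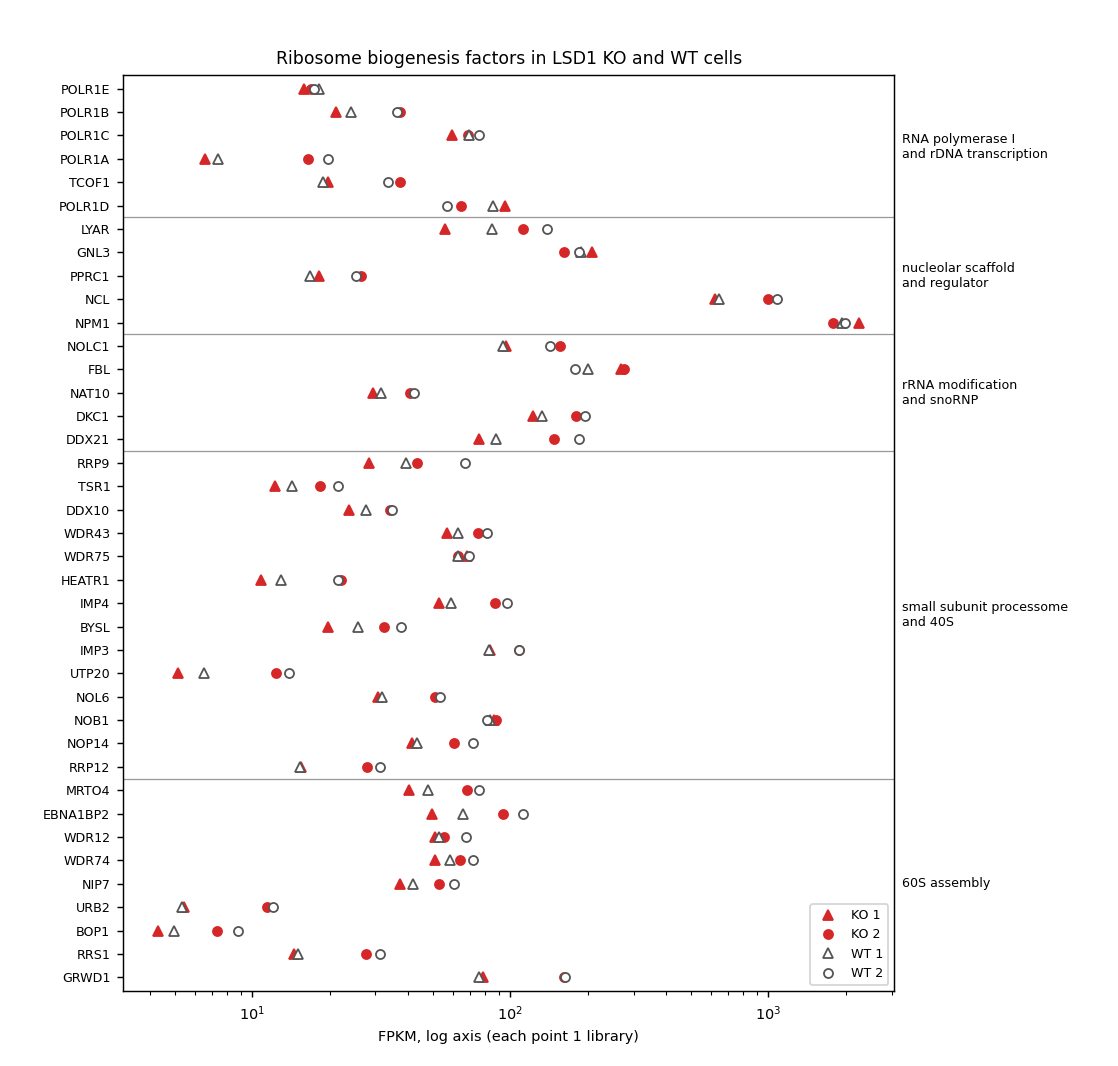
FPKM of 39 members in 2 LSD1 KO (filled red) and 2 WT libraries (open grey) on a log axis, with triangles for replicate 1 and circles for replicate 2. For 31 members both triangles lie left of both circles, and for 4 members the genotypes do not overlap.

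Among the members, the largest differences in the knockout set lay between replicate numbers. For 31 members both replicates 1 were below both replicates 2 (30.5% of all loci), and for GNL3 and POLR1D they were above (24.8%). Replicate 1 was 2-fold lower than replicate 2 for 3 members in KO (3.22% of all loci) and 5 in WT (4.07%), and 1.5-fold lower for 20 members in KO (11.5%) and 19 in WT (11.8%). POLR1A had 6.56 and 16.4 FPKM in KO libraries, against 7.38 and 19.7 in WT libraries. UTP20 had 5.14 and 12.3 FPKM in KO libraries, against 6.48 and 13.9 in WT libraries. GRWD1 had 78.3 and 161 FPKM in KO libraries, against 75.7 and 163 in WT libraries. In each of these the second library of either group had more than 2 times the level of the first. Other members followed the same order. NOLC1 had 96.3 and 156 FPKM in KO libraries, against 93.4 and 142 in WT libraries, and DDX21 had 75.5 and 147 in KO libraries, against 88.2 and 184 in WT libraries. RRP12 had 15.5 and 27.7 FPKM in KO libraries, against 15.3 and 31.2 in WT libraries, and NOP14 had 41.7 and 60.3 in KO libraries, against 43.3 and 71.9 in WT libraries. MRTO4 had 40.3 and 67.7 FPKM in KO libraries, against 48.1 and 75.8 in WT libraries, and URB2 had 5.45 and 11.4 in KO libraries, against 5.36 and 12 in WT libraries. In all 6 both second libraries were above both first ones. The medians of replicate 1 minus replicate 2 were -0.72 in KO and -0.72 in WT for the 19 members with transcripts over 3533 bases, and -0.44 and -0.45 for the 20 shorter ones. What the number marks is not stated, and the part of transcript length was not tested.

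Other genes of the pathway were set beside the members. In the combination minus DMSO, the median was -0.63 for 10 other snoRNP proteins, -0.47 for 43 other 40S factors, -0.40 for 45 other 60S factors, -0.32 for 16 exosome and trimming factors and -0.13 for 8 other polymerase I factors. It was -0.37 for 70 mitochondrial ribosomal proteins and 0.04 for 60 cytosolic ribosomal proteins. Of all these genes, 2 of the 60S factors were 2-fold lower. One was RPF2, with 36.4 and 20.4 FPKM with MC_2580 and in the combination, against 44.5 FPKM in DMSO. Factors of assembly and modification and the mitochondrial ribosomal proteins thus lay low beside the members, while the structural proteins of the cytosolic ribosome did not. A split in the same direction lay between libraries of 1 group. In KO 1 minus KO 2 the medians were -0.44 for snoRNP proteins, -0.44 for 40S factors, -0.43 for 60S factors and -0.26 for exosome factors. They were -0.19 for mitochondrial and 0.86 for cytosolic ribosomal proteins. WT 1 minus WT 2 gave -0.45, -0.42, -0.40, -0.33, -0.20 and 0.67 in that order. A split in that direction is thus not particular to the combination, but its sizes differed. The other polymerase I factors lay at -0.46 in KO and -0.39 in WT between replicates, against -0.13 in the combination. Cytosolic ribosomal proteins were higher in replicate 1 of both groups, but stood at 0.04 in the combination.

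Single genes departed from their lists. UBTF, the architectural factor of rDNA, had 37.4 and 54.5 FPKM with MC_2580 and in the combination, and 35.4, 37.2 and 36.5 from DMSO to 1 uM RA. POLR1G, listed as CD3EAP and a polymerase I subunit, had 6.67 and 3.48 FPKM with MC_2580 and in the combination, and 7.33, 4.29 and 4.50 from DMSO to 1 uM RA. NSUN5, an rRNA methyltransferase, had 54.7 and 70.4 FPKM with MC_2580 and in the combination, and 46.1, 97.1 and 102 from DMSO to 1 uM RA. NSUN5 was thus high with RA as RRP12 was. The lowest and highest log2 differences of the combination from DMSO were -0.92 (GAR1) and -0.13 (SHQ1) among snoRNP proteins, -0.89 (DIMT1) and 0.08 (DHX37) among 40S factors, and -0.90 (MPHOSPH6) and 0.39 (EXOSC4) among exosome factors. They were -0.22 (RPL35) and 0.31 (RPL28) among cytosolic and -0.89 (MRPS17) and 0.27 (MRPL53) among mitochondrial ribosomal proteins. In KO minus WT no gene of these lists passed the limma threshold. The cytosolic ribosomal proteins had a median of 0.42 with 0 of 61 below WT, beside 0.86 and 0.67 between replicates 1 and 2 of KO and of WT.

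**Figure D4:**
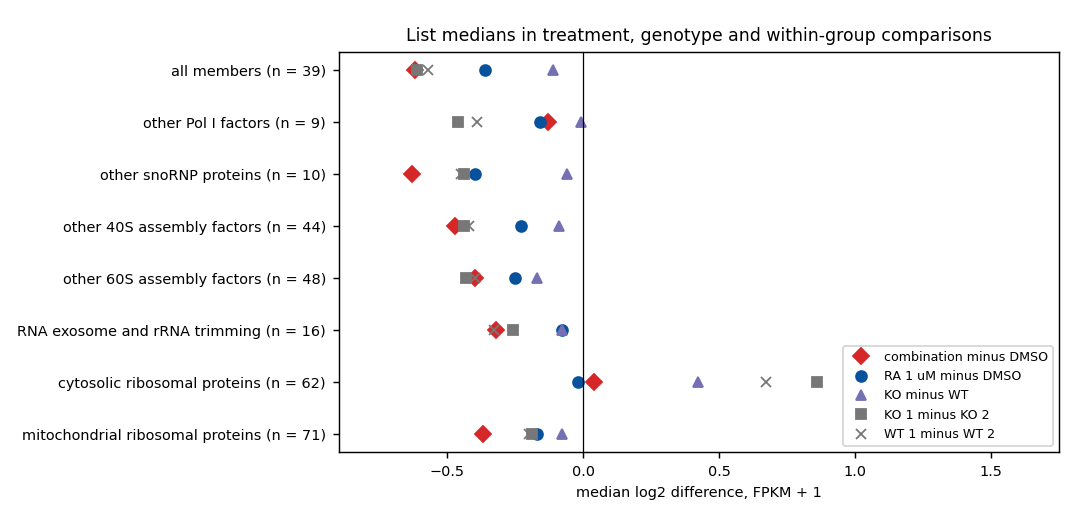
Median log2 difference of FPKM + 1 (horizontal axis) for the members and 7 other gene lists in 5 comparisons, with matched genes per list in brackets. The members lie near -0.6 in the combination and between replicates of 1 group, and the cytosolic ribosomal proteins lie at 0.04 in the combination but at 0.86 and 0.67 between replicates.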

How the data were processed

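Total RNA of NB4 cells was made into TruSeq V2 libraries, per the labels' protocols. Genome build hg18 and the tools Cuffdiff, Cufflinks, TopHat2 2.0.10, TopHat 1.3.1 and CASAVA 1.8 come from the submitters' processing notes, which give them no roles. Annotation, scaling and read totals: not given in the sources used here. Per the file headers, the deposited values are FPKM per locus, and each deposited test between a pair of libraries has its p-value, q-value and significance call, of which the text uses the call. The 0.001 FPKM the authors added in the knockout table was taken off, and failed estimates in the treatment table, listed at 0 by the authors, were treated as missing (1039 loci). Columns of samples that were not used numbered 0.

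For KO against WT, log2(FPKM + 1) values were fitted with limma 3.58.1 under R 4.3.3, with an intensity trend, over loci that average 1 FPKM or more in either group, two-sided, with Benjamini-Hochberg adjustment at 0.05. Treatment differences are log2((FPKM + 1)/(control FPKM + 1)) for loci of at least 1 FPKM in 1 of both libraries, past 2-fold. The pseudocount understates differences of low genes. Coordinates of loci are hg18 and span whole Cufflinks loci. The limma fit and the fold rule were tested on simulated data. Other steps ran in Python 3.11.15 (matplotlib 3.10.9, numpy 2.4.6, pandas 2.3.3).

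The members and lists were chosen with earlier results of these data known. Named in full are, per role group, the members lowest and highest in the combination against DMSO, those past a threshold, the 3 lowest and 3 highest in KO minus WT, and the most and least abundant; in the other lists, the lowest and highest in the combination. Others were named after their values were seen. Alternatives were other pseudocounts, filters, scalings and thresholds, a replicate block and leaving out each library. A group reduced to 1 library in these fits is assumed to vary as the other does. Dose order, the lowest of 5 libraries, within-group yardsticks, replicate order, transcript length and the shares of loci with a gap or with a library left out were added after seeing the data.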

Additional observations from a re-analysis of the deposited data

Results flagged for a closer look

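For 10 members, MC_2580 or RA 0.01 uM went with a difference of one sign when given with the other agent and of the opposite sign when given alone. Each rests on 1 library per treatment, so the difference was not tested. The share of all loci with such opposite signs was not counted, so the number is not shown to be particular to the members. For the MC_2580 effect, the log2 difference with RA minus that without RA was -0.62 for BOP1 (-0.38 with RA and 0.24 without), -0.56 for RRS1 (-0.46 and 0.10) and -0.45 for GRWD1 (-0.36 and 0.09). These 3 are 60S assembly factors. In the small subunit group it was -0.34 for IMP3 (-0.25 with RA and 0.09 without), -0.33 for IMP4 (-0.30 and 0.02) and -0.27 for RRP12 (-0.26 and 0.01). It was -0.21 for FBL (-0.17 and 0.04) and 0.09 for POLR1D (0.06 and -0.03), the only one with a higher value beside RA. After scaling to equal protein-coding medians, the POLR1D difference with RA changed sign, so its signs were then no longer opposite. For the RA 0.01 uM effect, the difference with MC_2580 minus that without was -0.39 for NOL6 (-0.37 and 0.02) and -0.21 for DDX21 (-0.11 and 0.10). Without RA the values of IMP4, RRP12, FBL and POLR1D are close to 0, as is that of NOL6 without MC_2580, so these signs rest on very small differences. Within groups of the knockout table, replicates of these genes differed by up to 1.09 in size (GRWD1, WT 1 minus WT 2 at -1.09).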

How the results depend on the processing

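In KO against WT, 0 members were called under every alternative run. Over all loci, limma called 8 higher and 7 lower, against 23 and 15 with a pseudocount of 0.1 FPKM, 43 and 16 over protein-coding genes, 2 and 5 at 5 FPKM, 0 and 1 after scaling to equal medians, and 0 with no filter or without any 1 library. The member median of -0.11 ranged from -0.43 to 0.16 when 1 library was left out, and the 4 members with no overlap became 11 to 31, where 61.5% to 70.9% of all loci had none. In at least 1 of these 4 fits, 33 of 39 members changed sign. Such fits leave replicate numbers unequal between the genotypes, so they also hold the difference between replicates. With the replicate number as a block, 0 of 13157 loci and 0 members were called, 6 members had an unadjusted p under 0.05 (15.4% of members, against 24.3% of loci), and the median was -0.11. Deviations of same-numbered libraries correlated at 0.85 over 10164 protein-coding genes and at 0.93 over the members. There are only 2 pairs and the labels do not say what the number marks, so the block is not taken as a pairing. In the treatments, 1.5-fold in place of 2-fold gave 1 member higher with RA 0.01 uM than in DMSO (9.57% of all loci). With RA 1 uM it gave 5 against DMSO, 4 lower (9.49%) and 1 higher (12%). In the combination it gave 23 lower than DMSO (12.6%), 3 lower than RA 0.01 uM (4.16%) and 12 lower than MC_2580 (11.7%). For the combination against DMSO, a pseudocount of 0.1 FPKM gave 3 members past 2-fold and scaling to equal protein-coding medians gave 4, against 1. Shares of all loci were not counted for either. The authors' deposited calls gave 1 (NCL) against 0 for MC_2580, RA 0.01 uM and RA 1 uM against DMSO and for the combination against RA 0.01 uM and MC_2580. Each such call compares 1 library with 1 other. A gap of at least 25% left 5 of 30 members with no overlap between libraries with and without RA, 4 lower (7.59% of all loci) and 1 higher (8.76%). Other scaling moved treatment medians by at most 0.07 and turned the sign of POLR1D (combination minus RA 0.01 uM), GRWD1 and NOB1 (RA 1 uM minus RA 0.01 uM). Under the other alternatives run, medians kept their direction and moved by less than 1 SD between replicates, and counts of calls and of members with no overlap stayed within 1.5 times. The unknown read depth limits most the members of low level.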
